A study of Mus musculus with 7 samples.

Results

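The STEAP metalloreductases are a family of 4 genes in the mouse, *Steap1*, *Steap2*, *Steap3* and *Steap4*, and all 4 of the 37310 genes counted in these libraries that carry these names are described here. They were chosen by family name, and the family itself was selected on a measured value, since *Steap1* had the clearest fall of all genes between WT and *Tardbp* KO mammary glands. The difference in *Steap1* is therefore given as a description with no test. All 4 genes passed the filter on low counts and were among the 17175 genes tested.

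STEAP proteins are heme proteins of the plasma membrane, the Golgi and endosomes, and they pass electrons across the membrane to metal ions outside the cytosol. STEAP2, STEAP3 and STEAP4 reduce ferric iron and cupric copper to the forms that transporters carry, and STEAP3 does this for iron that transferrin brings into endosomes. STEAP1 lacks the NADPH-binding oxidoreductase domain that the other members have at the N terminus, and was first known as a surface antigen of the prostate.

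The study asked what the loss of TDP-43, the RNA-binding protein encoded by *Tardbp*, does to the lactating mammary gland. RNA of whole mammary gland was sequenced at lactation day 1 from C57BL/6 mice, with 3 libraries labelled WT and 4 labelled *Tardbp* KO. By the study's methods both groups carried WAP-Cre, in which the *Wap* promoter, that of a milk protein gene, drives Cre recombinase. This promoter is active in luminal epithelial cells from mid pregnancy. WT mice had *Tardbp* wt/wt alleles and KO mice *Tardbp* fl/fl alleles, from which Cre removes exons 2 and 3, so that cells without *Wap* promoter activity keep the gene. The ages of the mice were not given in the sources used here.

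The libraries held 36007737 to 42811337 counts each. Counts of *Tardbp* itself gave a log2 fold change of 0.01 (SE 0.182), and a count over the whole gene does not test for the loss of 2 exons. The markers of luminal epithelium were present in every library, with summed levels of 2439 to 3292 CPM, the counts scaled to library size and composition, in WT and 2620 to 3860 in KO. Members of this sum differed in direction. *Elf5* was lower in every KO library than in every WT library (434 to 864 against 1017 to 1108 CPM). *Krt8* (604 to 819 against 407 to 588) and *Cdh1* (215 to 285 against 123 to 170) were higher in every KO library, and the others overlapped. Milk protein genes took 26.3% to 34% of the counts in WT and 12.7% to 21.8% in KO. In CPM, all 7 of them were lower in every KO library than in every WT library. Of all genes tested, 9.62% had that pattern. With libraries scaled by size only, *Csn1s2a* no longer had it. The study itself, by qRT-PCR, reported several milk protein genes as not affected when *Tardbp* was lost. It stated this for mammary epithelial cells, at stages from late pregnancy to early lactation, while the values here are of whole gland. The 10 lymphocyte markers summed to 38.2 to 55.7 CPM in WT and to 406, 65.3, 554 and 123 CPM in KO replicates 1 to 4, and none of them was at 0 in any library. Summed markers of myoepithelium, endothelium and fibroblasts overlapped between the groups. In RNA of a whole gland, fewer cells of a type and less RNA per cell cannot be told apart.

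The 4 genes share a block of exons, shown here because it is what makes them a family and because it bears on whether their reads can be mixed up. In the longest transcript annotated for each gene, a coding exon of 165 bases lies between an exon of 513 (*Steap1*) or 528 coding bases (the other 3) and the last exon. The exon before that block holds 84 coding bases in *Steap1*, against 489 in *Steap2*, 492 in *Steap3* and 456 in *Steap4*, and the whole coding sequence is 1020 bases in *Steap1* and 1470, 1467 and 1413 in the others. The 165-base exons, from mouse assembly NCBIM37, have capitals at the 63 positions where all 4 have the same base:
Steap1 exon 4 (chr5:5739796-5739960, minus strand): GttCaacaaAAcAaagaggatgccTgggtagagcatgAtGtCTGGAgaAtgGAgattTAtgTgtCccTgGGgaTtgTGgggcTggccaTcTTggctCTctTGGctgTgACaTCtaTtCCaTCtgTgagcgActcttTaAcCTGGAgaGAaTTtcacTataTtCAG
Steap2 exon 3 (chr5:5675841-5676005, minus strand): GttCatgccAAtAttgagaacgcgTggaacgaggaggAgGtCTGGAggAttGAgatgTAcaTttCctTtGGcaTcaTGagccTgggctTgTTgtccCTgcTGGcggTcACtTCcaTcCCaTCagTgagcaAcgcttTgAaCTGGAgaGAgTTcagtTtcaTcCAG
Steap3 exon 5 (chr1:122130819-122130983, minus strand): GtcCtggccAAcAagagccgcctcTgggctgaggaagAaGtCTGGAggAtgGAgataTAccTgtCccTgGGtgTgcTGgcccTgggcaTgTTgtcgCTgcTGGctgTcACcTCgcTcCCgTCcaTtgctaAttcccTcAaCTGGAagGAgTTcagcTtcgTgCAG
Steap4 exon 4 (chr5:7978408-7978572, plus strand): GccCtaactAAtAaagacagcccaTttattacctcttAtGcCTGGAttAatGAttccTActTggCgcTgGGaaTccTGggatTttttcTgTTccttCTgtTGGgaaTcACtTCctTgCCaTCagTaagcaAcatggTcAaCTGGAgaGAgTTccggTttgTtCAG

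Between pairs of members this exon was the same at 53.9% (*Steap3* and *Steap4*) to 67.3% of its bases (*Steap1* and *Steap2*, and *Steap2* and *Steap3*). No stretch of 31 bases was shared by the annotated transcripts of any pair, and the longest stretch shared was 15 bases. No other annotated gene overlaps any of the 4, and reads of a member were not lost to an overlapping gene.

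*Steap1* (ENSMUSG00000015652.3, chr5:5736317-5749326, minus strand) stood at 26.7, 22.7 and 30.5 CPM in WT replicates 1 to 3 and at 5.63, 6.44, 4.57 and 6.37 CPM in KO replicates 1 to 4. The groups lay far apart, and the highest KO library was well under the lowest WT library. The means were 26.6 ± 3.9 (SD, n = 3) and 5.75 ± 0.873 (SD, n = 4) CPM, a 4.63-fold difference and a log2 fold change of −2.21 (SE 0.187). These values rest on 710 to 1025 counts per library in WT and 212 to 280 in KO. With the mean level of the lymphocyte markers as a covariate the log2 fold change was −1.93, and without KO replicates 1 and 3 together, which had the highest lymphocyte markers, it was −2.05.

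*Steap2* (ENSMUSG00000015653.7, chr5:5664831-5694578, minus strand), a reductase of iron and copper, had 25.6, 31.5 and 25.5 CPM in the WT libraries and 11.7, 14.5, 11.2 and 10.7 CPM in the KO libraries. Here too every KO library lay below every WT library, and no KO library stood apart from the other 3. The means were 27.5 ± 3.42 (SD, n = 3) and 12 ± 1.69 (SD, n = 4) CPM. The log2 fold change was −1.19 (SE 0.165) with an adjusted p of 0.0517 (edgeR quasi-likelihood, Benjamini-Hochberg), which misses the study's limits of an adjusted p under 0.01 with an absolute log2 fold change above 1. An exact permutation test with 35 arrangements of the genotypes gave p = 0.0286, 2-sided, the smallest p this design allows. The study itself, with another version of edgeR, had *Steap2* among its differentially expressed genes, in a list of lipid genes drawn from these libraries. The miss above is thus that of the quasi-likelihood test used here, and the difference in *Steap2* is not independent evidence of direction.

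No gene of the 17175 passed both limits in the quasi-likelihood test (0%), while 3674 had an unadjusted p under 0.05, and edgeR's exact test and DESeq2's Wald test passed 426 and 572 genes. *Steap2* was past both limits in the exact test (adjusted p 9.38e-06) and in DESeq2 (adjusted p 3.66e-08), and over all alternatives its adjusted p ran from 3.66e-08 to 0.575. Its log2 fold change was −0.82 with libraries scaled by size only and −0.98 with the lymphocyte markers as a covariate, both within the limit of 1. Of all genes tested, 1.44% passed as lower and 1.04% as higher in KO by the exact test, and 1.64% and 1.69% by DESeq2.

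*Steap3* (ENSMUSG00000026389.10, chr1:122087334-122169282, minus strand), the ferrireductase of the transferrin cycle, had the most counts of the family. It stood at 136, 140 and 142 CPM in WT and at 91.6, 102, 95.5 and 127 CPM in KO. All 4 KO libraries were below the WT libraries, with KO replicate 4 closest to them. The log2 fold change was −0.42 (SE 0.15), with an adjusted p of 0.158 (edgeR quasi-likelihood, Benjamini-Hochberg) and an exact permutation p of 0.0571. When libraries were scaled by their size only, the log2 fold change of *Steap3* was −0.06 and its groups overlapped, and under that scaling the median of all genes was 0.42 instead of 0.05.

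In 3 of the 4 members each KO library was below each WT library, *Steap1* among them by choice. Of all genes tested, 9.62% had this pattern and 9.07% the reverse. At an unadjusted p under 0.05, 10.7% of genes were lower in KO and 10.7% higher, and *Steap2* (unadjusted p 5.21e-05) and *Steap3* (0.0204) were among the lower ones.

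**Figure D1:**
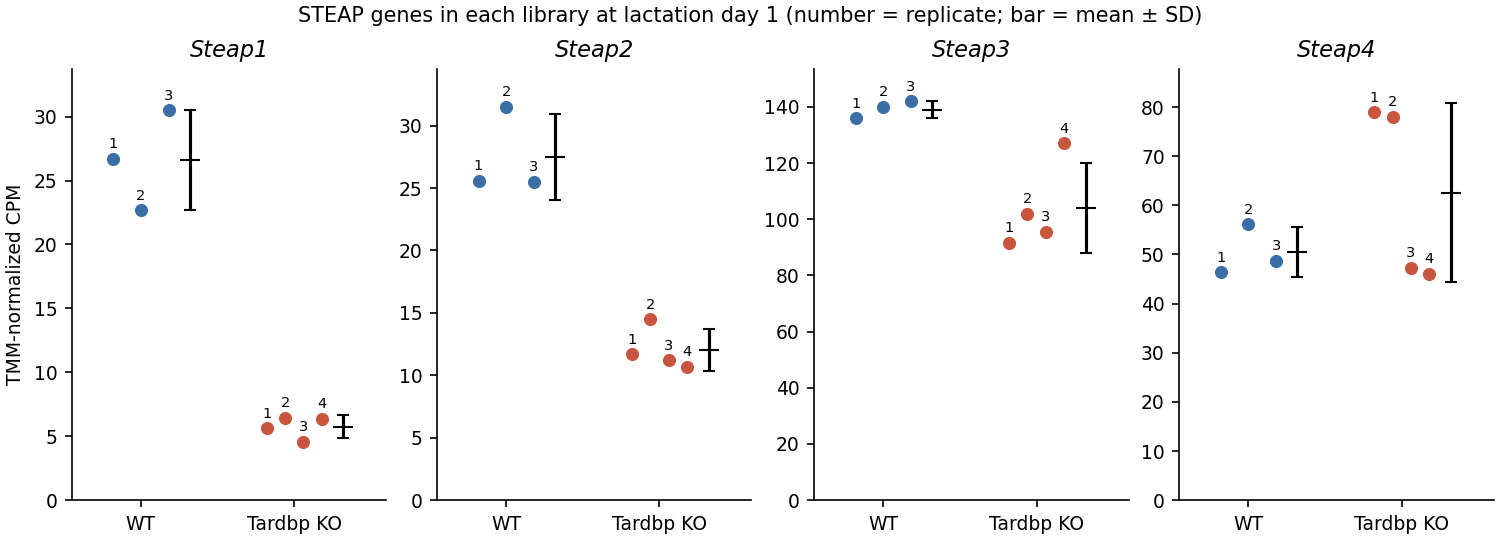
TMM-normalized CPM of each STEAP gene in the 3 WT (blue) and 4 *Tardbp* KO (red) libraries, with the replicate number at each point and the mean ± SD in black; each panel has its own axis from 0. *Steap1* lies at 22.7 to 30.5 CPM in WT and at 4.57 to 6.44 CPM in KO, while the KO libraries of *Steap4* split into a pair at 78 and 78.9 CPM and a pair at 46.1 and 47.3 CPM.

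*Steap4* (ENSMUSG00000012428.8, chr5:7960472-7982213, plus strand), a reductase known from adipose tissue and from responses to inflammatory signals, did not follow the other 3. Its WT libraries had 46.4, 56.2 and 48.7 CPM, and its KO libraries 78.9, 78, 47.3 and 46.1 CPM. KO replicates 1 and 2 were above every WT library, KO replicate 3 lay among the WT libraries and KO replicate 4 just under them. The means were 50.5 ± 5.14 (SD, n = 3) and 62.6 ± 18.3 (SD, n = 4) CPM, with a log2 fold change of 0.31 (SE 0.227), an adjusted p of 0.477 (edgeR quasi-likelihood, Benjamini-Hochberg) and an exact permutation p of 0.4.

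The pair of low KO libraries of *Steap4* came from sequencing lane 4 and the pair of high ones from lanes 1 and 5, and WT replicate 2 was the only WT library of lane 4. Within lane 4 the log2 fold change of *Steap4* was −0.27, against 0.31 over all libraries, while those of *Steap1*, *Steap2* and *Steap3* within lane 4 were −2.05, −1.52 and −0.33. These are values of 1 WT and 2 KO libraries with no test, and lane and library cannot be told apart for the other lanes. The lymphocyte markers were highest in KO replicates 1 and 3, and not in the pair with high *Steap4*. The 7 adipocyte markers summed to 2036, 3407, 2222 and 2342 CPM in KO replicates 1 to 4 and to 1929 to 2649 CPM in WT, and most of each sum was *Fabp4*. *Plin1*, a lipid droplet coat protein gene of that list, was highest in the same pair as *Steap4* (157, 248, 133 and 146 CPM in KO, 116 to 147 CPM in WT). Among the KO libraries *Lep*, the gene of leptin, was also higher in that pair (58.2, 18.1, 6.47 and 15.5 CPM, against 20.3 to 33 CPM in WT). Its value in KO replicate 2 was nonetheless under every WT library. *Adipoq*, the gene of adiponectin, was high in KO replicate 2 and low in KO replicate 1 (228, 450, 301 and 233 CPM in KO, 211 to 286 CPM in WT). The rest of the list did not follow the pair either. *Cidec* (247, 670, 328 and 343 CPM in KO), *Retn* (75.2, 197, 139 and 104), *Adrb3* (58, 163, 98.1 and 126) and *Fabp4* (1213, 1660, 1216 and 1374) were each lowest in KO replicate 1. The part of adipocytes in the *Steap4* values was not tested. Macrophage and neutrophil markers summed to 1081, 2171, 2646 and 2454 CPM in KO replicates 1 to 4 and 386 to 1519 CPM in WT. Most of each KO sum was *Cd14* (680, 1648, 2203 and 2262 CPM in KO, 135 to 1299 CPM in WT). In KO replicate 4, *Csf1r* (32.9 CPM, 39.7 to 52 in WT) and *Lyz2* (128 CPM, 130 to 183 in WT) were under every WT library. *Cd68* lay within the WT range there (10 CPM, 9.63 to 16.4 in WT).

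Of the 13799 genes with a mean of at least 1 CPM, the one whose log2 level followed *Steap4* most closely over the 7 libraries was *Plin4*, the gene of a lipid droplet coat protein (Pearson r 0.988). *Plin4* had 151, 183 and 154 CPM in WT and 307, 293, 137 and 126 CPM in KO, with the same pair of libraries high. The next were *Bmp3* (r 0.962), a bone morphogenetic protein, and *Shmt1* (r 0.958), an enzyme of folate metabolism, followed by *Phf2* (0.954) and *9130019O22Rik* (0.953).

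**Figure D2:**
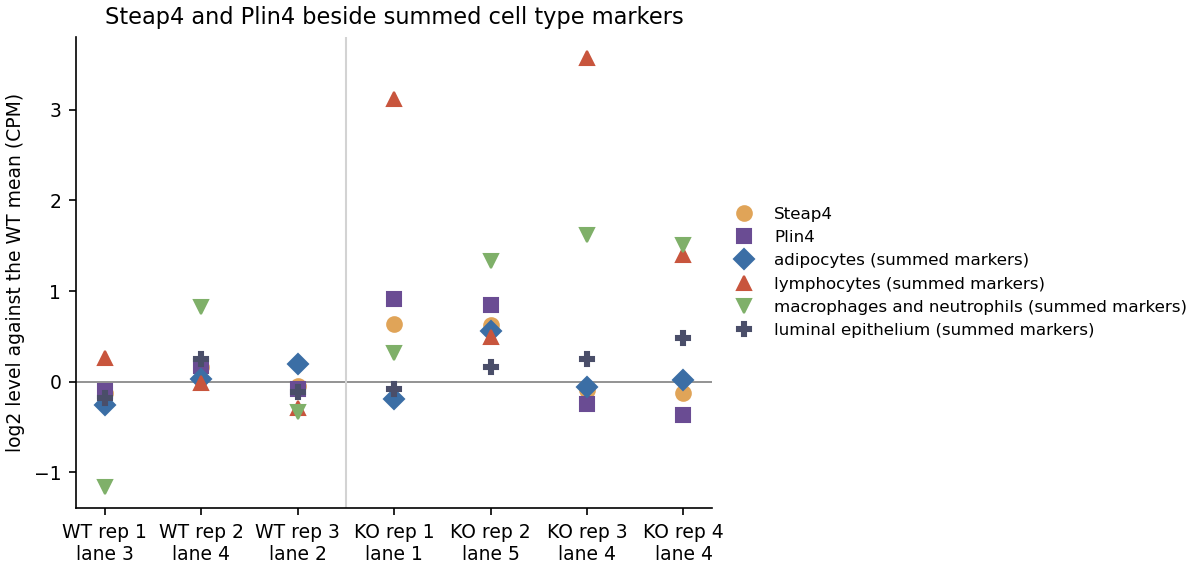
Levels of *Steap4*, of *Plin4* and of the summed markers of 4 cell types in each library, as log2 of the CPM over the WT mean; the sequencing lane stands under each library. *Steap4* and *Plin4* are high in KO replicates 1 and 2 (*Steap4* at 0.64 and 0.63, *Plin4* at 0.91 and 0.85) and near or below the WT mean in KO replicates 3 and 4, while lymphocyte markers are highest in KO replicates 1 and 3 (3.12 and 3.57). Most of the macrophage and neutrophil sum in each KO library is *Cd14*.

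The levels of the members can be compared only per length. Per kb of annotated exon, WT glands had most *Steap3* at 24.4 ± 0.516 CPM per kb, then *Steap1* at 19.3 ± 2.83, *Steap4* at 16.1 ± 1.64 and *Steap2* at 2.27 ± 0.281 (SD, n = 3). The WT libraries of *Steap1* (16.5 to 22.1) and *Steap4* (14.8 to 17.9) overlapped, so that this pair of neighbours in the order did not differ beyond their spread, while *Steap3* and *Steap2* were clear of them. With libraries scaled by size only, the WT ranges of *Steap3* (18.6 to 22.5) and *Steap1* (15 to 20) overlapped too. Within each WT library *Steap3* was the higher of these. In KO glands *Steap4* had 19.9 ± 5.84, *Steap3* 18.2 ± 2.79, *Steap1* 4.18 ± 0.634 and *Steap2* 0.992 ± 0.14 CPM per kb (SD, n = 4). *Steap4* and *Steap3* overlapped there, and *Steap1* was now clear of both. The level of *Steap2* per length is taken over 12142 exon bases, of which 8578 are the 3′ UTR of its longest transcript, and the use of isoforms was not measured.

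Among the protein-coding genes tested, 82.7% had a lower mean level per kb than *Steap1* in WT and 47.3% in KO. For *Steap2* these shares were 36.1% and 22.7%, for *Steap3* 86.4% and 82.3%, and for *Steap4* 79.3% and 84%. *Steap1* thus stood among the coding genes of high level in WT and near their middle in KO, and *Steap3* and *Steap4* stood among those of high level in both.

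Summed per kb over the family, WT glands had 62.1 ± 2.3 (SD, n = 3) and KO glands 43.3 ± 5.47 (SD, n = 4) CPM per kb. These sums do not overlap, but they contain *Steap1*, on which the family was selected. Without *Steap1* they were 40.7 to 45 in WT and 32.7 to 43.9 CPM per kb in KO, and with libraries scaled by size only the full sums were 47 to 58.5 and 42.5 to 55.7, and both of these overlapped. *Steap1* made up 26.8% to 34.2% of the sum in WT and 8.85% to 10.9% in KO. *Steap4* made up 24% to 29.2% in WT and 34.6% to 54.4% in KO, and *Steap3* 38.5% to 39.8% and 34.7% to 52.4%, and these shares contain the lower *Steap1* of KO glands in their total.

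Ratios within a library do not depend on how libraries are scaled. *Steap1* over *Steap4*, per kb, was 1.31, 0.919 and 1.43 in WT and 0.163, 0.188, 0.22 and 0.315 in KO, so that *Steap1* was the higher of the pair in 2 WT libraries and well under *Steap4* in every KO library. *Steap2* over *Steap4* was 0.135 to 0.145 in WT and 0.0385 to 0.0613 in KO, also without overlap. *Steap1* over *Steap2* was 6.35 to 10.5 in WT and 3.59 to 5.23 in KO. *Steap4* over *Steap3* was 0.62 to 0.733 in WT and 0.66 to 1.57 in KO, and these ranges overlapped. Every ratio with *Steap1* contains the value the family was selected on.

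**Figure D3:**
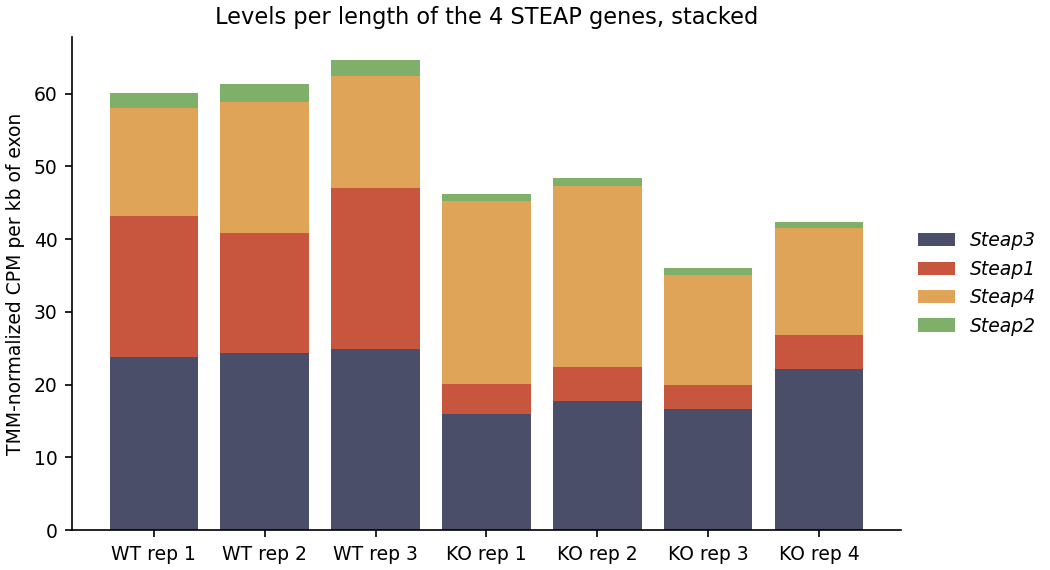
Stacked levels of the 4 STEAP genes in each library, in TMM-normalized CPM per kb of exon. The stacks reach 60.1 to 64.6 in WT and 36 to 48.5 in KO, and the *Steap1* layer narrows from 16.5 to 22.1 in WT to 3.32 to 4.68 in KO.

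Over the 7 libraries the log2 levels of *Steap1* and *Steap2* had a Pearson r of 0.949, with 8 genes closer to *Steap2* than *Steap1* was and 79 genes closer to *Steap1* than *Steap2* was. *Steap1* and *Steap3* had an r of 0.871, *Steap1* and *Steap4* −0.385, and *Steap3* and *Steap4* −0.601. These are descriptions over 7 libraries that fall into 2 genotypes, so that any gene with a clear difference between the groups scores high. The genes most like *Steap1* were *Map2k6* (r 0.99), a kinase of the p38 pathway, *Slc29a1* (r 0.984), a nucleoside transporter, and *Slc25a15* (r 0.983), a mitochondrial ornithine carrier, followed by *Btg3* and *Sec16b* (both 0.982). *Map2k6* had 3.63 to 4.25 CPM in WT and 1.62 to 2.12 in KO. *Steap3* was most like *Os9* (r 0.995), a lectin of protein quality control in the endoplasmic reticulum, which had 326 to 332 CPM in WT and 197, 215, 201 and 280 CPM in KO, with KO replicate 4 again closest to WT. The next for *Steap3* were *Usp5* (0.988), *2810030E01Rik* (0.987), *2410015M20Rik* (0.985) and *Ttc39a* (0.982). *Steap2* was most like *1110057K04Rik* (r 0.983) and *G2e3* (r 0.966), followed by *Gm15920*, *Serhl* (both 0.961) and *Arf3* (0.959).

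*Steap1* and *Steap2* lie side by side on chromosome 5 with 41.7 kb between them and no tested gene in that gap, and *Steap4* lies 2211 kb from *Steap1* on the other side. The values of the surrounding genes were therefore set beside those of the pair. Next to *Steap2*, *A330021E22Rik* had a log2 fold change of −0.62 (adjusted p 0.416) at about 1 CPM, and *Gtpbp10*, a GTPase gene, one of −0.33 (adjusted p 0.279), both by edgeR quasi-likelihood with Benjamini-Hochberg adjustment. Between *Steap1* and *Steap4* the nearest tested gene, *Zfp804b*, was close to 0 CPM in all libraries. Beyond *Steap4*, *Sri*, the gene of the calcium-binding protein sorcin, had 47.3 to 69.4 CPM in WT and 70.1 to 97.7 in KO, with a log2 fold change of 0.55 (adjusted p 0.141), and *Adam22* one of 0.95 (adjusted p 0.233).

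Within 3 Mb of the start of *Steap1* lie 26 other tested genes. Of these, 13 had lower and 13 higher values in KO (median log2 fold change −0.01), and 2 and 3 of them had an unadjusted p under 0.05 as lower (7.69%) and as higher (11.5%), near the 10.7% in each direction over all genes. The lowest was *Cyp51*, an enzyme of cholesterol synthesis, at −2.09, and the highest *Rundc3b* at 1.61. The log2 fold change of *Steap1* was below that of all 26 of these genes, and that of *Steap2* below all but *Cyp51*. *Steap1* was selected for its fall among all genes, so its own place in this order was largely set by that choice. The window was also set after these values were seen, and the order is a description only.

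**Figure D4:**
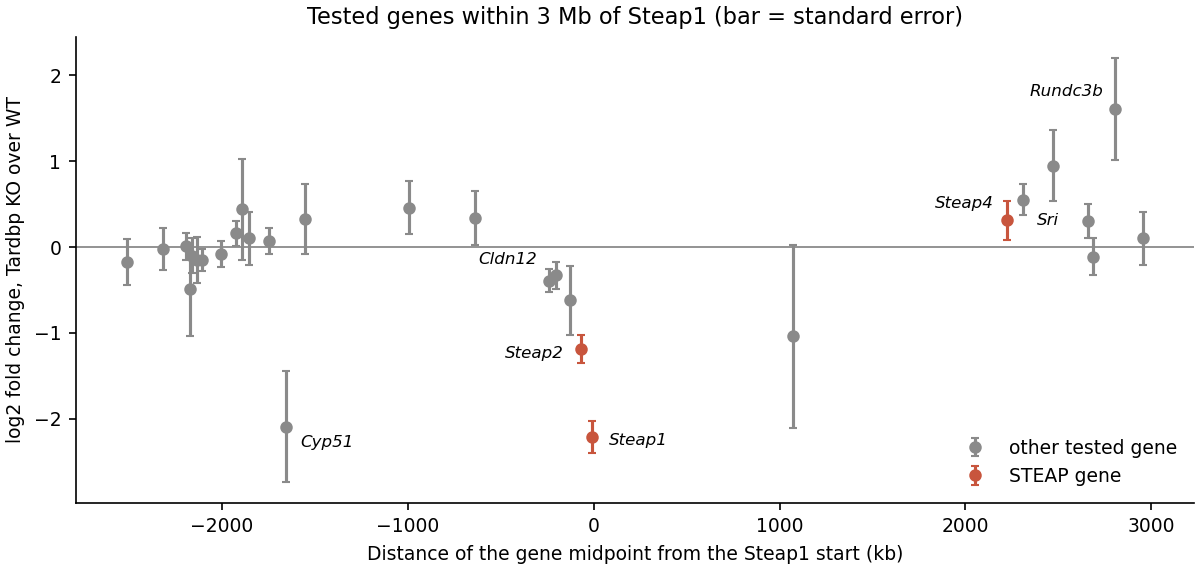
Log2 fold change (*Tardbp* KO over WT, bar = SE) of every tested gene whose midpoint lies within 3 Mb of the *Steap1* start, against its distance in kb; STEAP genes are red. *Steap1* (−2.21) and *Steap2* (−1.19) lie next to each other and below their grey neighbours, *Steap4* (0.31) lies 2222 kb away, and *Cyp51* (−2.09) is the only other gene below *Steap2*. *Steap1* was selected for its fall.

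On chromosome 1, the neighbours of *Steap3* were *3110009E18Rik* (log2 fold change 0.95, adjusted p 0.133) and *Dbi*, an acyl-CoA-binding protein gene (−0.09, adjusted p 0.893), on one side, and *Marco* and *En1* on the other. *Marco*, a scavenger receptor of macrophages, had 0.226, 0.0596 and 0.178 CPM in WT and 20.6, 0.046, 44.6 and 3.55 CPM in KO, high in the 3 libraries with most lymphocyte markers (log2 fold change 6.80, SE 1.83, adjusted p 0.097 by edgeR quasi-likelihood). *En1* stayed under 2 CPM in all libraries (log2 fold change 1.03, adjusted p 0.465).

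TDP-43 is known to bind runs of UG dinucleotides in RNA, so these were counted in the longest transcript of every member. Of the 15112 genes with such a count, 28.5% had no run of at least 3 UG, and the median was 1 run. *Steap1*, the member with the largest difference, had none in a transcript of 1230 bases, and introns were not searched for any member. *Steap2* had 5 runs, each of 3 UG and all in the 3′ UTR (10.2% of genes have at least as many), *Steap3* had 4 (16.9%) and *Steap4* had 2 (45.8%). A longer transcript has more room for runs, and that of *Steap2* has 10089 bases. Per kb of transcript, *Steap2* had 1.49 UG in runs, against 4.07 in *Steap3* and 1.91 in *Steap4*. The study's own analysis of UG motifs in its lipid genes included *Steap2* and found no significant enrichment in it.

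The runs outside coding sequence are shown because TDP-43 is the protein that the KO removes. Each is given as DNA from NCBIM37 with the UG run, written TG, in capitals, the positions being those of the run. The first is the run of 12 UG in the 3′ UTR of *Steap3*, the only one of at least 5 UG in the family:
Steap3 (chr1:122122864-122122887, minus strand): TGTGTGTGTGTGTGTGTGTGTGTG
Steap2 (chr5:5672572-5672577, minus strand): cttccTGTGTGgattt
Steap2 (chr5:5671815-5671820, minus strand): gtaatTGTGTGtattc
Steap2 (chr5:5669598-5669603, minus strand): ggttcTGTGTGatgtc
Steap2 (chr5:5668656-5668661, minus strand): ttcttTGTGTGtattc
Steap2 (chr5:5667576-5667581, minus strand): cccacTGTGTGtttat
Steap4 (chr5:7980882-7980887, plus strand): aagagTGTGTGcaact
Steap4 (chr5:7981785-7981790, plus strand): cttccTGTGTGgacag

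The other 3 runs of *Steap3* had 3 UG each and lay in its coding sequence. By the number of UG in runs, *Steap3* had 21, and 6.52% of genes had at least as many. A run in a sequence is a match of letters, and binding was not measured in these data.

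Because *Steap1* and *Steap2* had the most alike levels of the family, the 250 bases before their annotated starts are shown with those of *Steap4*, the member that did not follow them. They come from RefSeq with assembly GRCm38.p6. RefSeq has 1 start for *Steap1*, 3 for *Steap2*, of which the outermost is shown, 4 for *Steap3* and 1 for *Steap4*. Capitals mark GGGCGG (the GC box), TATAAA (the TATA box) and TTCNNNGAA (the motif of STAT factors), searched on both strands, so that TTTATA marks the letters TATAAA on the other strand:
Steap1 (chr5:5749318-5749567, minus strand): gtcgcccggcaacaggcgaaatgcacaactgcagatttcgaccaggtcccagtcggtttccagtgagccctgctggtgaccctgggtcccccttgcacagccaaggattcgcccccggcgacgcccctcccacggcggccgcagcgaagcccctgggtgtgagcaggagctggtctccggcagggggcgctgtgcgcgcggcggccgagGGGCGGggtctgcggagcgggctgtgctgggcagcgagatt
Steap2 (chr5:5694569-5694818, minus strand): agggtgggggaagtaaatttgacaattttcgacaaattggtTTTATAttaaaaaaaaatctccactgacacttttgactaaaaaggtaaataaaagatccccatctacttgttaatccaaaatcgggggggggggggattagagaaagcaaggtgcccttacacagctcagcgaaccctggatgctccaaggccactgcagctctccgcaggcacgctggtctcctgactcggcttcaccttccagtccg
Steap4 (chr5:7960222-7960471, plus strand): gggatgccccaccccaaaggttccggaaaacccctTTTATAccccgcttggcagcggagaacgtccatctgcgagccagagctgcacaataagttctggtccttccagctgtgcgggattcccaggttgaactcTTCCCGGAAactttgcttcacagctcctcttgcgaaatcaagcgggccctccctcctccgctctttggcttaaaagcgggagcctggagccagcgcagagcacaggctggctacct

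*Steap1* had 1 GC box, with 70.8% GC and 24 CpG, against a median of 52.4% and 6 CpG over 32851 such windows. The outermost *Steap2* window had 1 TATA match on the other strand, at position −209 from the start, with 47.2% GC and 7 CpG. That of its innermost start (chr5:5694090-5694339) had 2 GC boxes, 74.4% GC and 33 CpG. The middle *Steap2* window (chr5:5694327-5694576) had 1 STAT motif, 56.4% GC and 10 CpG. *Steap4* had 1 STAT motif, 1 TATA match on the other strand at position −215, 58.4% GC and 12 CpG. Of all windows, 32.7% hold a GC box, 12.4% the letters of a TATA box and 7.02% the STAT motif. These are matches of letters, and whether any of them is used was not measured.

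The STEAP proteins work beside other genes of iron and copper handling, which were taken from 5 lists by function. All 51 listed genes were tested, 25 had lower and 26 higher values in KO, and their median log2 fold change of 0.04 was close to that of all genes (0.05). By edgeR quasi-likelihood, 0 of them passed both limits. At an unadjusted p under 0.05, 6 were lower (11.8%) and 10 higher (19.6%), against 10.7% in each direction over all genes. EdgeR's exact test passed 1 as lower and 3 as higher, and DESeq2 passed 5 in all.

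In the transferrin cycle and ferrous iron import, the list in which STEAP3 works, 3 of 11 genes (27.3%) had an unadjusted p under 0.05, all lower in KO. Over all genes, 10.7% were lower at this limit. The median log2 fold change of the list was −0.19, and with libraries scaled by size only it was 0.19, against 0.42 for all genes. *Tfrc*, the transferrin receptor, had 391, 123 and 281 CPM in WT and 56.2, 61.6, 29.8 and 59.9 CPM in KO. Every KO library was below every WT library, although WT replicate 2 was much lower than the other 2 WT libraries. Its log2 fold change was −2.35, with an adjusted p of 0.062 by edgeR quasi-likelihood and 2.38e-06 by edgeR's exact test. *Trf*, the gene of transferrin, which milk also contains, had 2597, 2071 and 2070 CPM in WT and 1168, 1060, 646 and 1767 CPM in KO, again without overlap (log2 fold change −0.95, adjusted p 0.146 in the quasi-likelihood test). A second gene model named *Trf* overlaps this one and had 0 counts, and reads over both were not counted.

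Of the 6 other ferric and ascorbate-linked reductases, 1 was lower (16.7%) and 3 higher (50%) at an unadjusted p under 0.05. Over all genes this share was 10.7% in each direction. *Frrs1*, a ferric reductase, had 55.6, 34.8 and 40 CPM in WT and 25.1, 20.3, 19.2 and 22.6 CPM in KO, with no overlap (log2 fold change −0.99, adjusted p 0.0692 by edgeR quasi-likelihood). *Cybrd1*, the duodenal cytochrome b reductase, had 0.752, 1.34 and 0.535 CPM in WT and 2.76, 4.72, 2.37 and 3.57 CPM in KO (log2 fold change 1.93, adjusted p 0.0784). It went the opposite way from *Frrs1* at a level close to 1 CPM in WT.

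Among the 13 genes of iron storage, export and sensing, 4 were higher (30.8%) and none lower at an unadjusted p under 0.05 in edgeR's quasi-likelihood test. Over all genes, 10.7% were called in each direction. The list's median was 0.37 (log2 fold change). The value farthest from 0 was that of *Hmox1*, the heme oxygenase that frees iron from heme, with 11.5, 14.8 and 16.6 CPM in WT and 23.8, 27.5, 125 and 25.2 CPM in KO (log2 fold change 1.82, adjusted p 0.146). All KO libraries were above the WT libraries, and KO replicate 3, which had the most lymphocyte markers, was far above the rest; the part of these markers in the value was not tested. Summed red blood cell markers overlapped between the groups, at 77.5 to 431 CPM in WT and 67.6 to 813 CPM in KO.

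Of the 11 genes of copper handling, 1 was lower (9.09%) and 2 higher (18.2%) at an unadjusted p under 0.05, against 10.7% in each direction over all genes. Both higher ones were metallothioneins, small proteins that bind zinc and copper. *Mt1* had 114, 173 and 140 CPM in WT and 462, 300, 528 and 493 CPM in KO (log2 fold change 1.65, adjusted p 0.0537 by edgeR quasi-likelihood). *Mt2* had 30.9, 58.5 and 30.9 CPM in WT and 382, 101, 238 and 211 CPM in KO (log2 fold change 2.54, adjusted p 0.0678). Neither gene overlapped between the groups, and both were past the limits in edgeR's exact test (adjusted p 6.91e-07 for *Mt1* and 1.51e-05 for *Mt2*). Of the 10 genes of mitochondrial iron and heme, 1 was lower (10%) and 1 higher (10%) at an unadjusted p under 0.05, near the 10.7% over all genes. The list's median was 0.02 (log2 fold change).

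**Figure D5:**
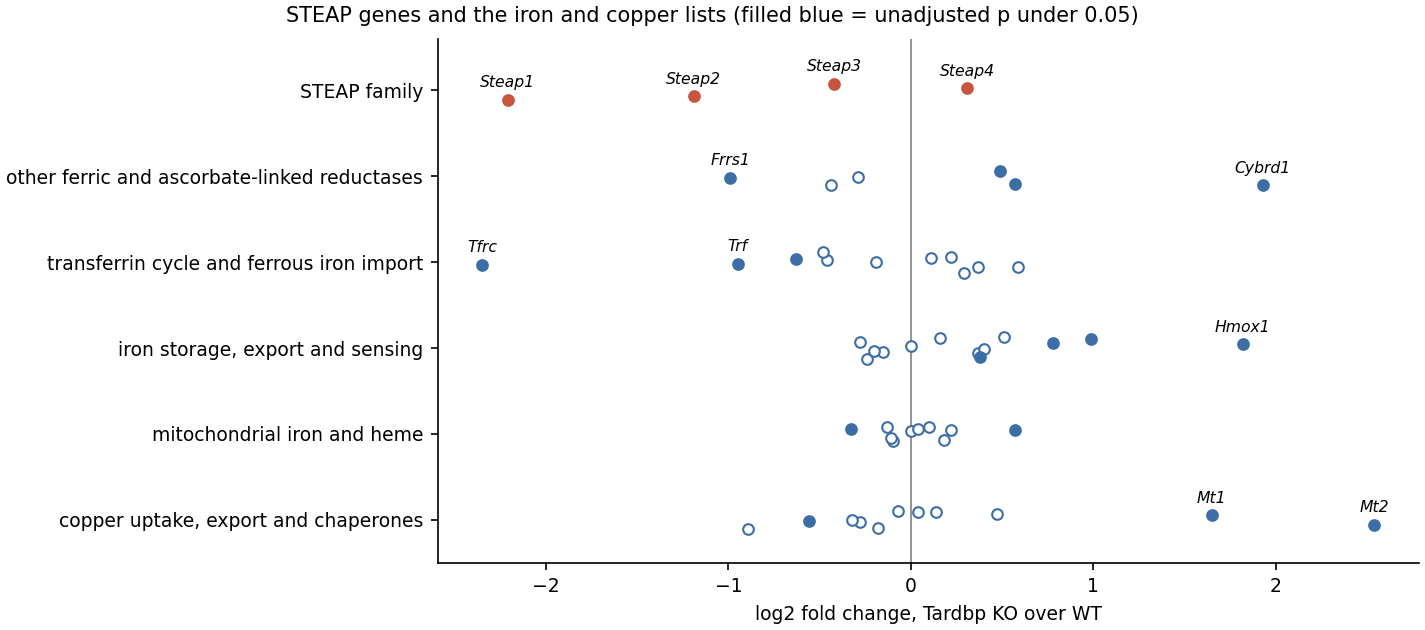
Log2 fold change (*Tardbp* KO over WT) of the 4 STEAP genes (red) and of the 51 genes of the iron and copper lists (blue, filled where the unadjusted p of edgeR's quasi-likelihood test is under 0.05), 1 point per gene and 1 row per list. The STEAP genes run from −2.21 to 0.31, and the named genes farthest from 0 are *Tfrc* at −2.35 and *Mt2* at 2.54.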

How the data were processed

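RNA-seq libraries of mammary gland at lactation day 1 (3 WT, 4 *Tardbp* KO) took their groups from the genotype that the labels give. The authors mapped paired-end TruSeq reads to mouse assembly NCBIM37 with STAR (2.5.2a in the submitters' processing notes) and counted them on gencode vM1 genes with featureCounts 1.4.6-p5, per the file headers, without options for strand, pairs or multimapping. Each mate was thus a count of its own, and reads with several places or several genes were left out. The deposited values are raw counts.

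After removal of 37 mitochondrial and 580 ribosomal genes, a gene was tested where 4 or more of the 7 libraries had 5 or more counts (17175 of 37310 genes). The quasi-likelihood test of edgeR 4.0.16 (R 4.3.3) compared the genotypes after TMM scaling, with Benjamini-Hochberg adjustment. The study's limits were used, an adjusted p below 0.01 together with a log2 fold change beyond 1 in either direction. The script was tested on simulated data. Exact permutation tests used log2(CPM + 1) and the absolute difference of means. The study gives the groups as 3 WT and 4 KO mice, and each library was taken as 1 mouse. Counting error, at 36007737 to 42811337 counts a library, is part of that spread. No columns were left unmapped, and 1 further library that the command line names was not analysed here.

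The members, the gene lists and the motifs were chosen with earlier results of these data known, and the 3 Mb window was set after the values around *Steap1* had been seen. Named genes were the members, the 2 nearest tested genes on each side, the listed genes with the 3 lowest and 3 highest log2 fold changes or past an unadjusted p of 0.05 with an absolute log2 fold change above 1, and the 5 genes most like each member by Pearson r of log2 level over the 7 libraries. *Cyp51*, *Rundc3b*, *Plin1*, *Lep*, *Adipoq*, *Fabp4*, *Cidec*, *Retn* and *Adrb3* were named after their values were seen. So were *Cd14*, *Csf1r*, *Lyz2*, *Cd68*, *Elf5*, *Krt8* and *Cdh1*. Alternatives were other scalings, filters and tests (edgeR's exact test, DESeq2 1.42.0), a replicate block, each library left out, lane 4 only, lymphocyte markers as a covariate and, chosen after seeing the data, KO replicates 1 and 3 left out together.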

Additional observations from a re-analysis of the deposited data

Results flagged for a closer look

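Among 40 genes described here, the spread of the 4 KO libraries was checked for a single library far from the rest (Dixon's test), and 3 genes had 1. Chance gives such a gap in about 1 of 20 groups. *Hmox1* had 125 CPM in KO replicate 3, against 23.8, 27.5 and 25.2 CPM in the other KO libraries. The neighbour of *Steap3*, *3110009E18Rik*, had 2.32 CPM in KO replicate 4, against 1.65, 1.66 and 1.62 CPM. *2810030E01Rik*, which was among the genes most like *Steap3*, had 4.69 CPM in KO replicate 4, against 3.18, 3.27 and 3.21 CPM.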

How the results depend on the processing

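*Steap1* had a log2 fold change of −2.31 to −1.85 over its 18 alternatives, with −1.85 under scaling by library size only, −1.93 with the lymphocyte covariate and −2.31 to −2.10 with 1 library left out. *Steap2* was −1.19 and −1.21 with edgeR's exact test and DESeq2, both past the limits, −1.52 within lane 4, −0.82 under library size only (adjusted p 0.0585), −0.98 with the lymphocyte covariate (adjusted p 0.575), and −1.29 to −1.09 with 1 library left out (adjusted p 0.0226 to 0.249). *Steap3* stayed between −0.56 and −0.06 and was past the limits under none of its alternatives. *Steap4* reversed to −0.27 within lane 4, and was 0.18 to 0.42 with 1 library left out and 0.68 under library size only (adjusted p 0.103). Of the iron and copper genes, 0 passed in the quasi-likelihood test, 4 in the exact test and 5 in DESeq2, and 0 with any 1 library left out. The causes were not tested. Levels per kb in WT under library size only were 1.97 for *Steap2*, 21.1 for *Steap3* and 14 for *Steap4*. With runs of at least 5 UG, *Steap1*, *Steap2* and *Steap4* had 0 and *Steap3* had 1.

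The correlations of same-numbered deviations from the group means were 0.351, 0.0941 and −0.058, with no common pattern of pairing by replicate number. That of replicate 1 was the highest of all pairs of a WT and a KO library, and so few libraries cannot exclude a pairing. With a replicate block the log2 fold changes were −2.27, −1.14, −0.53 and 0.40 for *Steap1* to *Steap4* and changed no call (adjusted p 0.0328, 0.0873 and 0.25 for *Steap2* to *Steap4*), and 4225 genes had an unadjusted p under 0.05, against 3674 without it. Lane 4 alone allowed no test of the lists.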
